A study of Mus musculus with 4 samples.

Results

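Ahr, Arnt, Hif1a and Bhlhe40 encode 4 transcription factors of the basic helix-loop-helix class, and the accessible chromatin around them was compared between Maf-deficient and Maf-sufficient immature γδ thymocytes of the fetal mouse. Open regions were counted for a gene when its body was the nearest protein-coding gene body of the RefSeq table (GRCm38), at no more than 100 kb. This gave 89 of 171490 merged regions, of which 27 belonged to Ahr, 17 to Arnt, 17 to Hif1a and 28 to Bhlhe40. None of the 89 lay equally near to a second protein-coding gene, but some lay nearer to a gene of another type.

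The tested libraries, called KO 1 and KO 2, came from Maf fl/fl Il7rCre fetuses, in which Cre made under the control of Il7r deletes floxed Maf in lymphoid precursors. Their controls, WT 1 and WT 2, came from Maf+/+ Il7rCre fetuses, so both genotypes carry Cre. For every library, cells that were negative for CD4 and CD8 and positive for TCRγδ, CD3ε and CD24, with low CD45RB, were sorted from the thymi of pooled fetuses of embryonic day 17 to 18 on a C57Bl/6 background (N5 backcross). Open DNA was tagged by the Tn5 transposase with the Omni-ATAC protocol, and the deposited data are 1 list of peaks per library. Whether KO 1 and KO 2, or WT 1 and WT 2, were separate pools is not in the labels, and their spread may therefore be technical.

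AHR is a receptor for small aromatic ligands that enters the nucleus, pairs with ARNT and binds DNA at dioxin response elements. HIF-1α, the product of Hif1a, is degraded when oxygen is plentiful and otherwise pairs with the same partner, ARNT, to bind hypoxia response elements. BHLHE40 forms dimers on E-boxes and mostly represses transcription. In T cells that make IL-17, AHR is known for its part in IL-22 production and HIF-1α for a part in glycolytic metabolism, while BHLHE40 is known to hold down IL-10 in T helper cells.

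The lists held 130935 and 120141 peaks in KO 1 and KO 2, against 102718 and 132179 in WT 1 and WT 2. Heights were compared as percentiles of the fold enrichment within a library, where 100 is the tallest peak of that list. A short list holds fewer weak peaks, which lowers the percentile of the same region. Over the 78650 regions called in all 4 libraries, the median percentile was 69.3 and 66.8 in KO 1 and KO 2, against 60.7 and 69.5 in WT 1 and WT 2. With 2 libraries against 2, the exact two-sided permutation test cannot go below p = 0.333, so no region could pass 0.05 and every difference below is a description. A call that is missing need not mean closed chromatin, because it also depends on the depth of the library. At the targeted gene, Maf, neither KO library and both WT libraries had a peak near a gene end (no more than 1 kb away). Of its 16 regions called in 2 or more libraries, 1 was KO-only (6.25%, 4.34% over the genome) and 4 were WT-only (25.0%, 2.89%). A peak near a gene end was found in each of the 4 libraries for 7 of 7 T cell markers and 5 of 5 markers of αβ thymocytes. Markers of type 17 γδ cells had one at 5 and 4 of 6 genes in KO 1 and KO 2, against 5 and 6 in WT 1 and WT 2. The counts were 2 of 4 for B cell and 2 of 4 for myeloid markers in every library. They were 2 and 1 of 4 erythroid markers in KO 1 and KO 2, against 1 and 1 in WT 1 and WT 2, and 3 and 4 of 5 stromal markers in the KO libraries, against 4 and 4 in the WT libraries. The share of all genes with such a peak is not given here, so these counts alone do not identify cell types. The part of other cells in the results below was not tested.

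RefSeq promoter sequences, 250 bases before to 50 bases after a gene start, were found for 2 of the 4 genes, Arnt and Hif1a (GRCm38.p6, both on the + strand). They are shown because the tallest region of each gene covers them. The Arnt promoter is at chr3:95434140-95434439 and the Hif1a promoter at chr12:73907617-73907916. Capitals mark exact matches, on either strand, to GCGTG (core of the dioxin response element), ACGTG (core of the hypoxia response element), CACGTG (an E-box of the kind BHLHE40 binds, which contains ACGTG on both strands), TGCTGA (a part of the Maf recognition element) or TGACTCA (an AP-1 site).
Arnt: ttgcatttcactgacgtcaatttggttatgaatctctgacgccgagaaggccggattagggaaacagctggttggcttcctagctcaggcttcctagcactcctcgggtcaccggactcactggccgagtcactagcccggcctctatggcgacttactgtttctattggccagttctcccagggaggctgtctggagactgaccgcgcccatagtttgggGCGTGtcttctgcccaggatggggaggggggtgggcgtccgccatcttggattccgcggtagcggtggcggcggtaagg
Hif1a: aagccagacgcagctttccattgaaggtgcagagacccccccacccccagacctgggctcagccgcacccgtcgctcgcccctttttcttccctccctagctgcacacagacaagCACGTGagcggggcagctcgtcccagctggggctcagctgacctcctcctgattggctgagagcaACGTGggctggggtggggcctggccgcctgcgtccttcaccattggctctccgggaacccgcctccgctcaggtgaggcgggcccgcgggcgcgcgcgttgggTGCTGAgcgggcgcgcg

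The Arnt promoter holds 1 GCGTG, at bases 222 to 226 of the printed sequence, 29 bases before the gene start, and no other of these motifs. The Hif1a promoter holds 1 CACGTG at bases 116 to 121 and a further ACGTG at bases 181 to 185. It also holds 1 TGCTGA at bases 284 to 289, just inside the transcribed part. Among 32851 promoters of this length in the table, 32.4% hold GCGTG, 19.6% ACGTG, 7.15% CACGTG, 19.5% TGCTGA and 5.20% TGACTCA. These are matches of letters and not measured binding.

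Both promoters were open in every library and were among the tallest peaks of each list. The Arnt promoter region, on chromosome 3 from 95434083 to 95434878, stood at percentiles 95.9 and 95.6 in KO 1 and KO 2, against 94.5 and 91.6 in WT 1 and WT 2. Its summit lay 115 and 71 bp before the gene start in KO 1 and KO 2, against 11 and 101 bp in WT 1 and WT 2. Both KO percentiles were above both WT percentiles, by 2.74 points in the mean, while the region was narrower in both KO libraries (670 and 658 bp) than in both WT libraries (703 and 796 bp).

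The Hif1a promoter region, on chromosome 12 from 73907564 to 73908143, was the tallest of all 89 regions. It reached percentiles of 98.0 and 97.5 in KO 1 and KO 2, against 98.8 and 98.4 in WT 1 and WT 2. The fold enrichment there was 32.1 and 32.8 in the KO libraries, against 31.2 and 33.3 in the WT libraries. The 4 summits fell within 14 bp of each other, between 84 and 98 bp before the gene start. The KO percentiles lay 0.86 points lower in the mean, without overlap. Ranked by −log10 q, the difference turned to 0.17 points higher in KO and the genotypes overlapped, so the direction depends on the ranking measure. The first base of the Hif1a body in the gene table, 73901324, lies upstream of this promoter. Near that base a peak was called in KO 1 alone, at 73901333 to 73901430 with a percentile of 34.2.

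**Figure D1:**
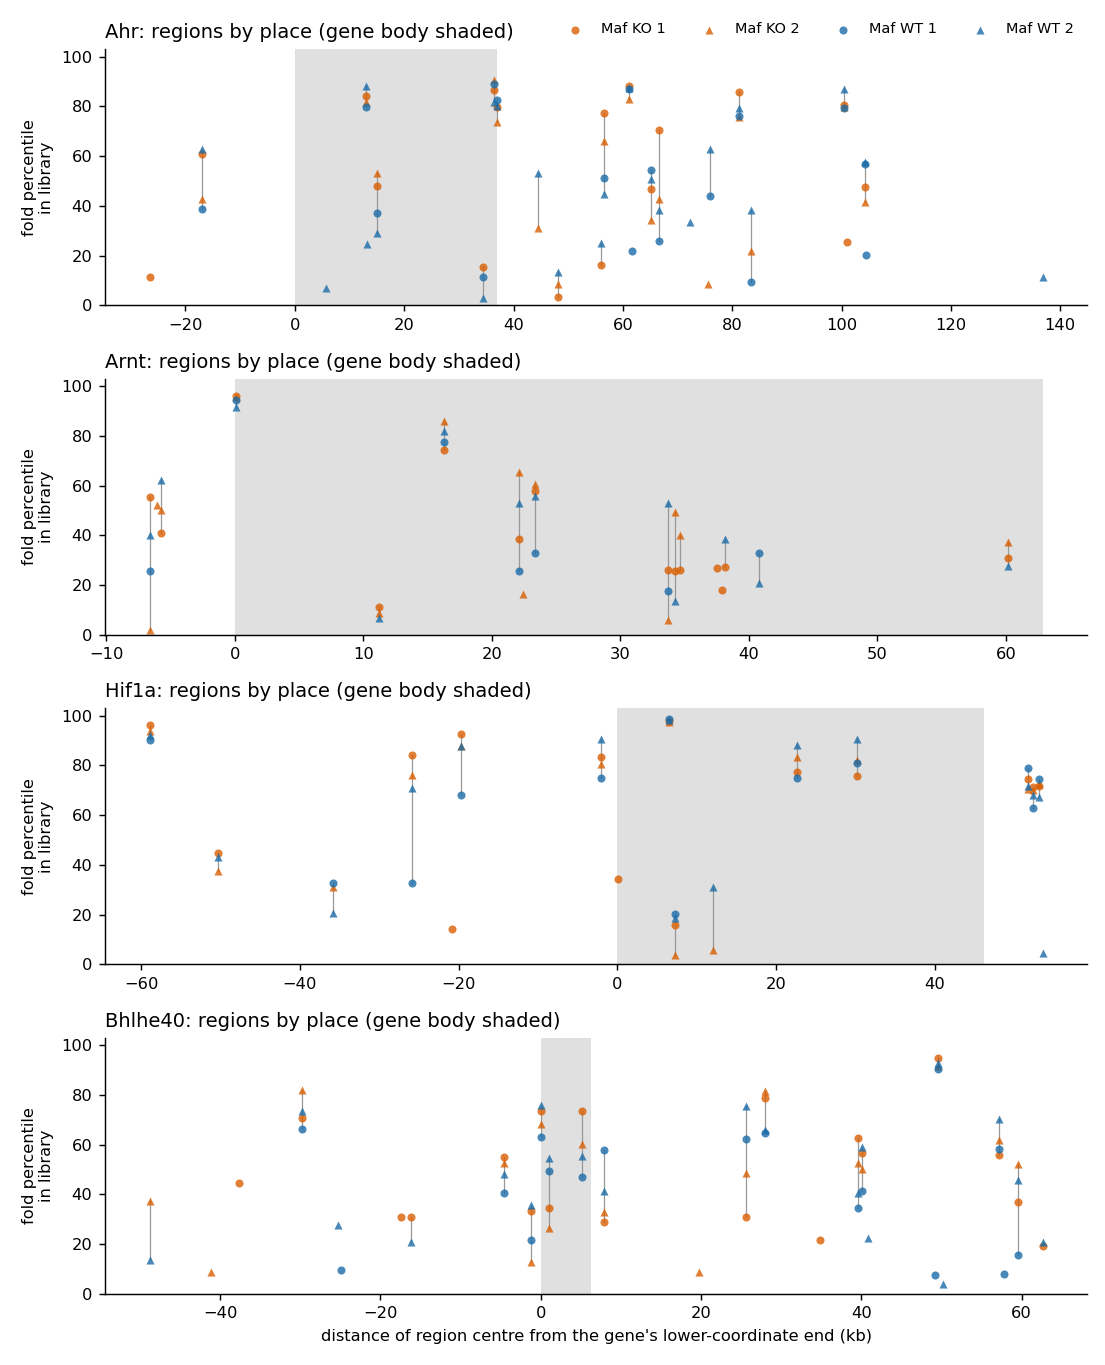
Percentile of fold enrichment within the library (vertical axis) for each of the 89 regions, by distance of its centre in kb from the lower-coordinate end of the gene (horizontal axis). Orange marks are KO and blue marks WT libraries, circles replicate 1 and triangles replicate 2, grey lines join the libraries that called a region, and shading is the gene body. Ahr and Bhlhe40 have most of their regions outside the gene, Arnt inside.

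The place of the regions differed among the 4 genes. At Arnt, which spans 62.9 kb and has the gene Ctsk 1.97 kb beyond its far end, 14 of 17 regions were inside the gene (82.4%). At Bhlhe40, a gene of 6.30 kb, 3 of 28 were inside, with 10 before and 15 after it, and the nearest coding genes, Itpr1 and Arl8b, lie 109.5 and 116 kb away. At Ahr 7 of 27 were inside and 18 lay beyond its higher-coordinate end, in a gap of 391 kb to Agr3. Hif1a had 6 of 17 inside. Over the genome 59.4% of regions overlap a coding gene body.

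Of the 89 regions, 43 were called in all 4 libraries and 62 in 2 or more. The number called was 64 in KO 1 and 60 in KO 2, against 53 in WT 1 and 69 in WT 2, so WT 1 was lowest and WT 2 highest. The lowest count in a single gene was 7 for Arnt in WT 1, against 14 and 13 for Arnt in KO 1 and KO 2 and 12 in WT 2. Of 9 regions called in exactly 3 libraries, WT 1 was the missing one in 6, and over the genome it was the missing one in 61.8% of 21031 such regions. The 27 regions called in 1 library were mostly weak, with percentiles of 4.04 to 52.3.

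Few regions divided the genotypes by presence. At the 4 genes, 1 of 62 regions was KO-only, called in both KO and neither WT library (1.61%, background 4.34% of such regions over the genome). Conversely 2 of 62 were WT-only (3.23%, background 2.89%). Both shares thus rest on 1 or 2 regions, and the WT-only share is close to that of all regions. With 1 library left out, fewer lists must meet the rule, and the shares over the genome were higher as well. The KO-only count became 6 without KO 1 (10.3%, 13.4% over the genome), 10 without KO 2 (17.2%, 20.7%) and 7 without WT 2 (13.0%, 17.1%), and stayed at 1 without WT 1 (1.67%, 5.89%). The WT-only count became 3 without KO 1 (5.17%, 6.13% over the genome), 4 without KO 2 (6.90%, 6.23%), 10 without WT 1 (16.7%, 17.5%) and 7 without WT 2 (13.0%, 8.69%). The KO-only share of the 4 genes was thus below that of the genome with each library left out in turn. With equal numbers of peaks it was above, with 3 of 54 regions (5.56%, 3.88% over the genome).

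The WT-only region of Ahr lies 38.8 kb beyond the gene, on chromosome 12 from 35573837 to 35574115. WT 1 had a peak of 115 bp at percentile 43.9 (−log10 q of 6.35) and WT 2 one of 279 bp at percentile 62.7 (14.9). It was the taller of the 2 WT-only regions and met a −log10 q of 5 in both WT libraries. When a peak had to cover at least 0.5 of the merged region, the call was lost and Ahr had 0 WT-only regions, since the WT 1 peak covers less than that. Arnt had a WT-only and the KO-only region, both inside the gene and both small. The KO-only one, at 95468922 to 95469031, stood at percentiles 25.9 and 40.2 in KO 1 and KO 2. The WT-only one, at 95475092 to 95475219, stood at 32.9 and 20.8 in WT 1 and WT 2. Their widths ran from 88 to 102 bp. At a −log10 q of at least 5, Arnt had 0 of either kind, and with equal numbers of peaks it had 3 KO-only and 0 WT-only regions. Hif1a and Bhlhe40 had none of either kind among 14 and 17 regions called in 2 or more libraries. With at least 0.5 of the region covered, Bhlhe40 had 1 WT-only region of 16. Of the 1182 genes of the genome with 13 to 18 such regions, 32.7% had none of either kind, 33.1% had a WT-only region, 49.7% a KO-only region and 15.4% both.

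**Figure D2:**
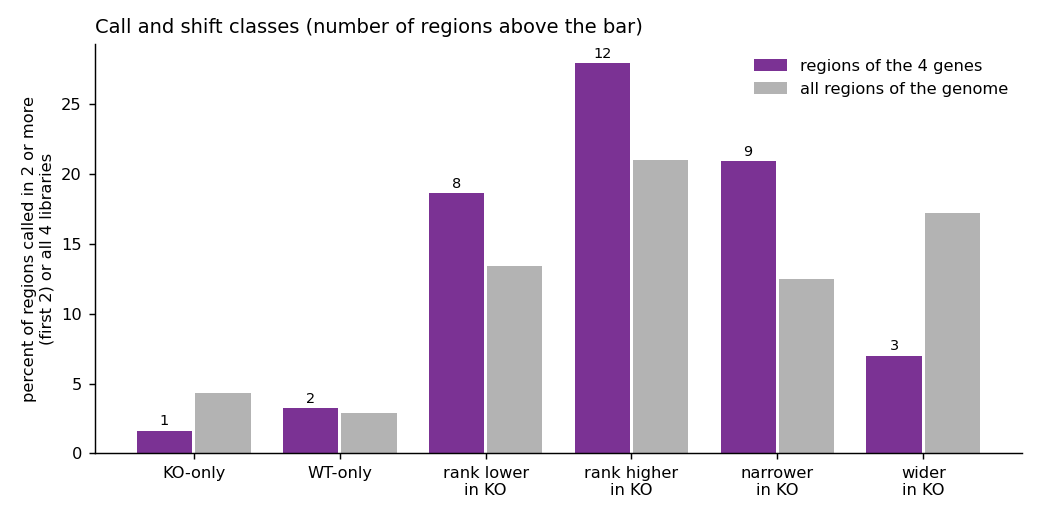
Share of regions in each class (vertical axis, percent) for the 4 genes in purple and for all regions of the genome in grey, with the number of regions of the 4 genes above each bar. KO-only and WT-only are shares of regions called in 2 or more libraries, and the rank and width classes of regions called in all 4. The 4 genes have 12 regions ranked higher and 3 wider in both KO libraries.

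Among the 43 shared regions, 8 had both KO percentiles below both WT percentiles (18.6%, background 13.4%) and 12 had both above (27.9%, background 21.0%), while 23 overlapped. Both shares were a little above the background and the median difference, KO minus WT, was 1.06 points, against 1.22 over all shared regions of the genome. Ranking within the 78650 shared regions alone, which takes the lengths of the lists out of the measure and was chosen after seeing the data, gave 13 lower (30.2%, 18.1% over the genome) and 12 higher (27.9%, 18.6%). Without KO 1 there were 14 lower (30.4%, 31.4% over the genome), without WT 1 21 lower (42.9%, 37.4%), and without WT 2 24 higher (54.5%, 52.6%), so the counts moved much as those of all regions did.

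Bhlhe40 had the region that differed most to the lower side, 19.1 kb beyond the gene on chromosome 6 from 108686011 to 108686438. Its percentiles were 30.8 and 48.6 in KO 1 and KO 2, against 62.4 and 75.7 in WT 1 and WT 2, a difference of −29.3 points. The fold enrichment was 4.80 and 7.51 in the KO libraries, against 7.50 and 12.5 in the WT libraries, and the width 123 and 211 bp in KO 1 and KO 2, against 275 and 428 bp in WT 1 and WT 2. Height by rank and width were thus lower in both KO libraries, with a mean width 0.475 times that in WT. Among the shared regions the difference in rank was −37.2 points.

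A second region inside Bhlhe40, 1.04 kb from its lower-coordinate end at 108661576 to 108661763, stood at 34.4 and 26.4 in KO 1 and KO 2, against 49.4 and 54.6 in WT 1 and WT 2. Another, 1.37 kb beyond the gene at 108668296 to 108668688, stood at 28.7 and 33.0 in the KO libraries, against 57.8 and 41.4 in the WT libraries, and was also narrower, with 223 and 266 bp in KO 1 and KO 2, against 323 and 305 bp in WT 1 and WT 2. At a −log10 q of at least 5 this region beyond the gene was not called in all 4 libraries (4.56 in KO 1). Neighbouring regions went the other way. Inside the gene, 994 bp from its far end, the region at 108665551 to 108665931 stood at 73.5 and 60.1 in KO 1 and KO 2, against 47.0 and 55.3 in WT 1 and WT 2. It was the wider one in KO, with 302 and 323 bp in KO 1 and KO 2, against 133 and 241 bp in WT 1 and WT 2.

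The region 21.5 kb beyond Bhlhe40, at 108688428 to 108688714, lies next to the one with the most negative difference. It stood at 78.6 and 81.7 in KO 1 and KO 2, against 64.7 and 65.8 in WT 1 and WT 2. The region 33.2 kb beyond the gene, at 108700175 to 108700345, stood at 62.8 and 52.5 in the KO libraries, against 34.6 and 40.7 in the WT libraries. Regions of both directions thus stand side by side in this flank. The region over the lower-coordinate gene end, at 108660294 to 108661075, overlapped between the genotypes, with 73.5 and 68.2 in KO 1 and KO 2, against 63.0 and 75.8 in WT 1 and WT 2. With the mean of its peaks in place of the tallest, both KO values were above both WT values, by 23.6 points in the mean. Each KO library had 1 peak in this region and each WT library 2, so a second peak enters the WT means only. By the tallest peak the difference was 1.43 points. The one 932 bp before the gene, at 108659215 to 108659697, also overlapped, with 33.4 and 13.0 in the KO libraries, against 21.6 and 35.6 in the WT libraries. With equal numbers of peaks both KO values were lower there (−10.1 points).

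At Ahr, 3 of 12 shared regions ranked lower (25.0%, background 13.4%) and 3 higher (25.0%, background 21.0%) in both KO libraries. Those that ranked higher included the region 29.6 kb beyond the gene, at 35564587 to 35564731, with percentiles of 70.6 and 42.8 in KO 1 and KO 2, against 25.8 and 38.5 in WT 1 and WT 2. KO 1 and KO 2 differed there by more than KO 2 and WT 2 did. At a −log10 q of at least 5 this region was not called in all 4 libraries (3.71 in WT 1). The region 19.3 kb beyond the gene, at 35554319 to 35554564, stood at 77.5 and 66.2 in KO 1 and KO 2, against 51.4 and 44.6 in WT 1 and WT 2. Inside the gene, the region at 35512904 to 35513099 stood at 47.9 and 53.1 in the KO libraries, against 37.2 and 29.1 in the WT libraries, and its 4 summits fell within 2 bp. With equal numbers of peaks and in the ranking among shared regions, where the difference was 11.6 points, the genotypes overlapped there.

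Between and beyond these lay regions of the other direction. At 35562930 to 35563200, 27.9 kb beyond Ahr, the percentiles were 47.0 and 34.1 in KO 1 and KO 2, against 54.5 and 51.0 in WT 1 and WT 2. At 35602102 to 35602315, 67.1 kb beyond the gene, they were 47.4 and 41.6 in the KO libraries, against 57.0 and 57.6 in the WT libraries. The region across the higher-coordinate end of Ahr, at 35534818 to 35535244, stood at 79.7 and 73.8 in KO 1 and KO 2, against 82.4 and 80.3 in WT 1 and WT 2, a small gap in a tall region. Ranked by −log10 q, the genotypes overlapped there. Its neighbour 300 bp inside that end, at 35534089 to 35534689, overlapped, with 86.8 and 90.8 in the KO libraries, against 89.0 and 81.8 in the WT libraries. It was higher in both KO libraries when ranked by −log10 q (3.02 points). With the mean of its peaks the difference was −13.7 points and the genotypes overlapped. KO 1 had 2 peaks in this region and each other library 1. Both regions at this end of Ahr were tall in all 4 libraries.

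**Figure D3:**
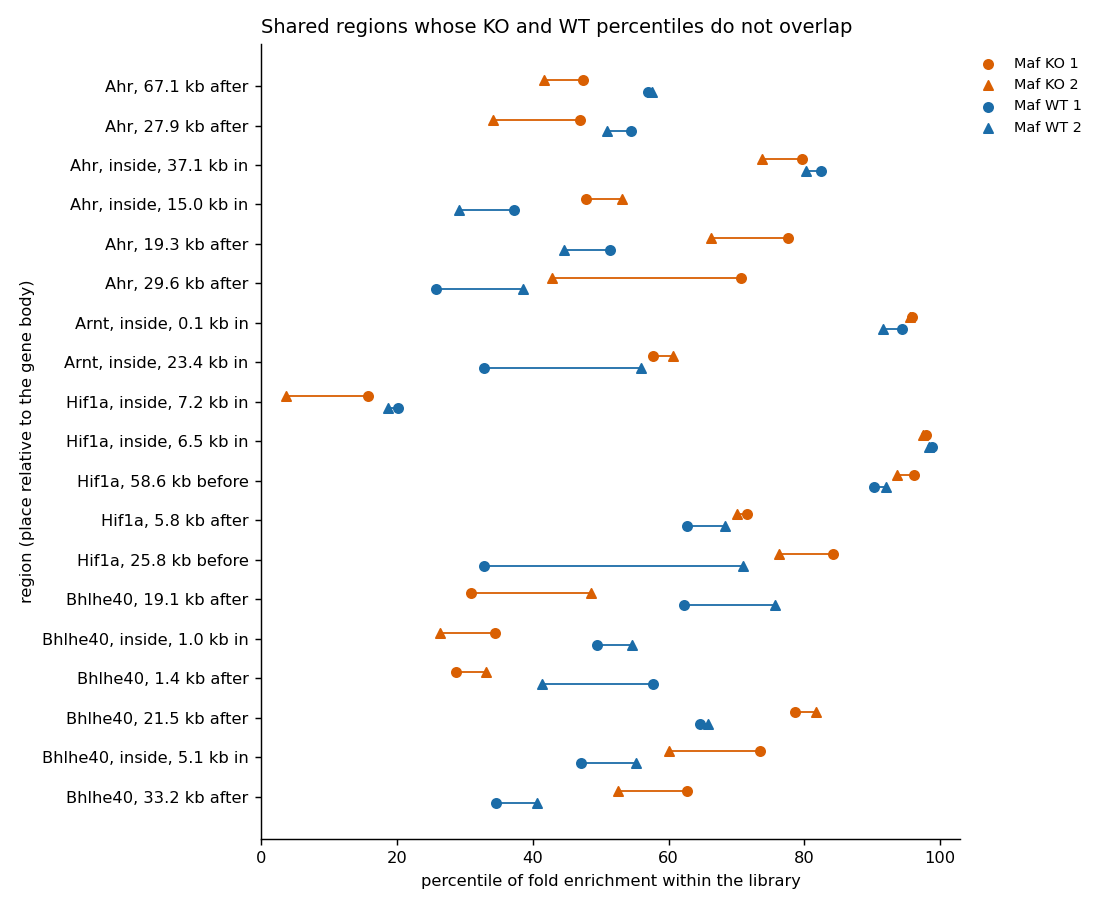
Percentile of fold enrichment within the library (horizontal axis) for the shared regions of the 4 genes named by the rule for regions whose genotypes did not overlap (vertical axis, by place relative to the gene body). Orange is KO above blue WT in each pair of lines, circles are replicate 1, triangles replicate 2, and each line joins the 2 libraries of a genotype. Both directions occur at Ahr, Hif1a and Bhlhe40.

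At Hif1a, 3 of 11 shared regions ranked higher (27.3%, background 21.0%) and 2 lower (18.2%, background 13.4%) in both KO libraries. The largest gap, 28.4 points, was 25.8 kb before the gene at 73875322 to 73875534, with 84.3 and 76.3 in KO 1 and KO 2, against 32.9 and 70.9 in WT 1 and WT 2. Most of that gap came from WT 1, since WT 2 stood close below KO 2. A tall region 58.6 kb before the gene, at 73842060 to 73842750, stood at 96.2 and 93.7 in the KO libraries, against 90.3 and 92.1 in the WT libraries. The third, 5.85 kb beyond the gene at 73953401 to 73954029, stood at 71.5 and 70.2 in KO 1 and KO 2, against 62.7 and 68.3 in WT 1 and WT 2. This region holds several peaks of a library, and with the mean of its peaks in place of the tallest the difference was −0.027 points, the other direction. Without WT 2 the peaks here merged differently, so the percentiles above do not apply. The newly merged region that shared most bases with this one differed by 1.68 points, and the genotypes overlapped. On the lower side, beside the promoter region, a weak region at 73908400 to 73908741 stood at 15.7 and 3.62 in the KO libraries, against 20.1 and 18.6 in the WT libraries, and overlapped when ranked by −log10 q.

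Of the 6 shared regions of Arnt, 0 ranked lower in both KO libraries (13.4% over the genome) and 2 higher (33.3%, 21.0% over the genome). Besides the promoter, 1 region ranked higher, inside the gene at 95457667 to 95457844, with 57.7 and 60.7 in KO 1 and KO 2, against 32.9 and 55.9 in WT 1 and WT 2. Here too WT 1 stood apart from the other 3 libraries. The remaining 4 shared regions of Arnt overlapped, and their differences in mean percentile ran from −19.5 to 12.5 points. When ranked among shared regions, 1 of the 6 was lower in both KO libraries (16.7%, 18.1% over the genome).

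More regions of these genes were narrower than wider in both KO libraries. In 9 of 43 shared regions both KO widths were below both WT widths (20.9%, background 12.5%), and in 3 both were above (6.98%, background 17.2%). The median ratio of KO to WT width was 0.967, against 1.02 over all shared regions of the genome. Per gene, 4 were narrower and 1 wider of 14 shared regions at Bhlhe40, and 2 and 2 of 12 at Ahr. At Hif1a they were 2 and 0 of 11, and at Arnt 1 and 0 of 6. The narrower ones included both printed promoters, of which that of Hif1a had 539 and 530 bp in KO 1 and KO 2, against 578 and 545 bp in WT 1 and WT 2. With the percentile of width within a library the counts were 10 narrower (23.3%, 11.9% over the genome) and 4 wider (9.30%, 21.8%). Within 20 kb of the genes they were 4 narrower of 28 (14.3%), near the 12.5% of the genome, and 1 wider (3.57%, against 17.2%). Single libraries moved these counts. There were 13 narrower without KO 1 (28.3%, 20.9% over the genome) and 19 without KO 2 (43.2%, 30.3%). Without WT 1 there were 27 (55.1%, 43.5%), and without WT 2 12 (27.3%, 17.2%). The wider count became 9 without KO 1 (19.6%, 37.2% over the genome), 11 without KO 2 (25.0%, 28.3%), 9 without WT 1 (18.4%, 22.5%) and 17 without WT 2 (38.6%, 55.8%). Without WT 2, more regions were thus wider than narrower, as over the genome.

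**Figure D4:**
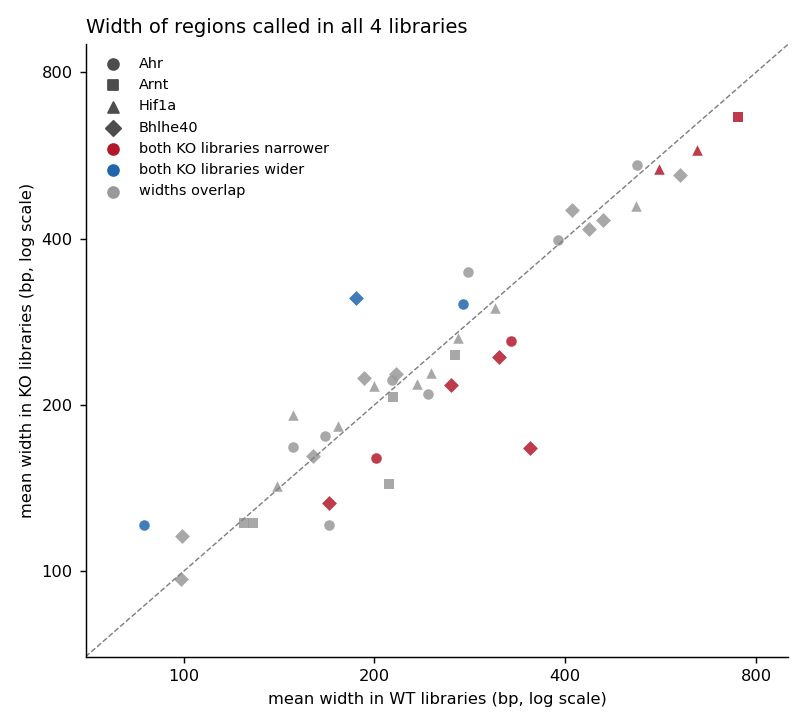
Mean width in the KO libraries (vertical axis, bp, log scale) against mean width in the WT libraries (horizontal axis, bp, log scale) for the 43 regions called in all 4 libraries. Symbols mark the gene, colour marks whether both KO widths were below (red) or above (blue) both WT widths, and the dashed line is equality. The red points, 9 in number, include the widest region, the Arnt promoter.

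Height and width did not always move together. Of the 8 regions lower in rank, 4 were also narrower and 0 wider, where over the genome 27.8% of such regions were narrower. Of the 12 higher in rank, 2 were wider and 3 were narrower, where over the genome 30.3% were wider and 6.23% narrower. Those 3 were the Arnt promoter, the Hif1a region 58.6 kb before the gene and the Bhlhe40 region 33.2 kb beyond it. Inside the merged regions the libraries mostly shared the same DNA, with a median of 63.4% of a shared region covered by all 4 libraries and at least 56 bp in each. The summits of a region lay a median of 47 bp apart, from 2 to 320 bp.

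Over the 4 libraries, the mean percentile of the regions of Ahr called in 2 or more libraries was 49.5 and 45.9 in KO 1 and KO 2, against 45.8 and 54.7 in WT 1 and WT 2, where a missing call counts as 0. The same mean was 39.2 and 38.6 for Arnt in the KO libraries, against 23.6 and 42.0 in the WT libraries. For Hif1a it was 63.3 and 63.8 in the KO libraries, against 56.5 and 67.1 in the WT libraries. For Bhlhe40 it was 49.2 and 47.8 in the KO libraries, against 41.9 and 52.3 in the WT libraries. In all 4 genes both KO values lay between the WT values, with WT 1 lowest and WT 2 highest. The median percentile of all shared regions of the genome, another measure, was placed likewise. It was 69.3 and 66.8 in KO 1 and KO 2, against 60.7 and 69.5 in WT 1 and WT 2. Hif1a had the highest mean and Arnt the lowest, in each library. Among 8037 genes with at least 5 such regions, those with the smallest Euclidean distance in these 4 means included Adar and Lrig1 for Ahr (1.10 and 1.36 points), Fcho2, Dnajc15 and Foxo6 for Arnt (1.09 to 2.58), Dennd4a, Prokr1 and Rab11fip5 for Hif1a (1.71 to 2.34) and Emb, Srpk2 and Nfatc2 for Bhlhe40 (0.655 to 1.06). This likeness covers 4 libraries only.

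Other genes of the same pathways are read against the same backgrounds, 4.34% KO-only and 2.89% WT-only. Of 10 genes of the aryl hydrocarbon receptor pathway, with 43 regions called in 2 or more libraries, 1 region was KO-only (2.33%) and 1 WT-only (2.33%). The KO-only one was 36.0 kb from Tiparp, a target that restrains AHR, and the WT-only one 10.1 kb from Cyp1a2, which encodes a cytochrome P450. The other 8 genes, among them Ahrr, the repressor of the receptor, and Cyp1a1, its best known target, had none of either kind.

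Of 15 genes of the hypoxia pathway, with 148 such regions, 4 regions were KO-only (2.70%) and 3 WT-only (2.03%). Epas1, which encodes HIF-2α, had 2 KO-only regions, and Vegfa, an angiogenic growth factor, had 1. Egln3, a prolyl hydroxylase that marks HIF-1α for decay, had 1 KO-only and 2 WT-only regions, and Ddit4, an inhibitor of mTORC1, had 1 WT-only region. The other 11 genes, including Vhl and Slc2a1, had none. Of 12 bHLH-PAS and clock genes, with 115 such regions, 3 regions were KO-only (2.61%) and 7 WT-only (6.09%, above the background of 2.89%). Bhlhe41, the closest relative of Bhlhe40, had 1 KO-only and 2 WT-only regions. Nr1d1, a clock repressor, and Sim2, a bHLH-PAS factor of development, had 2 WT-only regions each. The percentiles of these were 45.5 and 51.6 in WT 1 and WT 2 for the taller region of Nr1d1, 34.3 and 25.9 for that of Bhlhe41 and 29.1 and 38.5 for that of Sim2. The other WT-only region was weaker in each case, at 1.27 and 2.96 for Nr1d1, 9.51 and 22.7 for Bhlhe41 and 15.0 and 25.7 for Sim2. Arnt2 had 1 WT-only region, at 17.7 and 69.0 in WT 1 and WT 2. Of the 12 genes, 6 had none of either kind. Of the shared regions of the lists, those lower and higher in rank in both KO libraries were 4 and 7 of 31 in the aryl hydrocarbon receptor list (12.9% and 22.6%), 16 and 16 of 106 in the hypoxia list (15.1% and 15.1%) and 12 and 14 of 69 in the bHLH-PAS and clock list (17.4% and 20.3%), against 13.4% lower and 21.0% higher over the genome.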

How the data were processed

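Omni-ATAC-seq peak lists of 2 KO and 2 WT libraries were used, 1 deposited list per library. The submitters' processing notes list MACS2 2.1.1, Bowtie2 2.3.4.1, deepTools 3.1.2, bedtools, Picard, Trim Galore and cutadapt, with mm10 and GRCm38 as builds. Tn5 shifting, duplicate handling and peak settings were not given in the sources used here. Deposited lists give a whole-number score, the fold enrichment over the local background (a ratio, column 7) and each summit's −log10 p and −log10 q, which are the authors' values within a library and were used to rank and filter. The deposited lists end at a q of 0.1. Read totals were not analysed here, so depth is not known and only peak number is given, which need not follow depth.

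On chromosomes 1 to 19 and X, peaks sharing at least 1 bp were merged. A region takes the percentile of its tallest peak and the base pairs covered by that library's peaks. Regions were assigned to the nearest protein-coding gene body. The gene table gives no strand, so ends are named by coordinate. The steps were checked on simulated peaks. All 4 genes are named. Values are printed for regions within 1 kb of a gene end, KO-only and WT-only regions, and up to 3 regions a direction and gene whose genotypes did not overlap. In the pathway lists, genes with a KO-only or WT-only region are named, at most 4 a list. One gene with a pattern like that of Ahr is not reported here. The genes, lists and rules were chosen with earlier results of these data known. Alternatives varied the call rule, the q threshold, the number of peaks, the distance, the gene types, the ranking and width measures, the library set and a block on replicate number. Python 3.11.15, numpy 2.4.6, pandas 2.3.3, scipy 1.17.1 and matplotlib 3.10.9 were used.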

Additional observations from a re-analysis of the deposited data

How the results depend on the processing

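Counts as small as these move easily. With a −log10 q of at least 5 there were 0 KO-only (4.04% over the genome) and 1 WT-only regions (2.17%, 2.26% over the genome). Equal numbers of peaks (102718 per list) gave 3 KO-only (5.56%, 3.88% over the genome) and 1 WT-only (1.85%, 4.06%). Requiring peaks over 0.5 of the region gave 2 KO-only (3.33%, 5.20% over the genome) and 2 WT-only (3.33%, 3.31%). The WT-only ones were then at Arnt and Bhlhe40 in place of Arnt and Ahr. Within 20 kb there was 1 WT-only region (2.44%, 2.89% over the genome), and 7 shared regions were higher in rank (25.0%, 21.0%). There, 4 were narrower (14.3%, 12.5%) and 1 was wider (3.57%, 17.2%). Ranking among shared regions gave 13 lower. With genes of every type allowed as the nearest, 44 of the 62 regions called in 2 or more libraries stayed with the 4 genes. These were 18 of 18 at Ahr, 11 of 13 at Arnt, 9 of 14 at Hif1a and 6 of 17 at Bhlhe40. Of the shared regions, 8 of 30 were then lower (26.7%, 13.4% over the genome) and 8 higher (26.7%, 21.0%). With 1 library left out, KO-only regions numbered 1 to 10 (5.89 to 20.7% of regions over the genome), WT-only 3 to 10 (6.13 to 17.5%), lower 10 to 21 (22.5 to 37.4%), higher 17 to 24 (29.8 to 52.6%), narrower 12 to 27 (17.2 to 43.5%) and wider 9 to 17 (22.5 to 55.8%), since fewer lists then had to meet each rule. Of the 19 named shared regions whose genotypes did not overlap, 18 stayed apart with equal numbers of peaks, 18 in the ranking among shared regions and 16 in the ranking by −log10 q. At a −log10 q of at least 5, only 13 of the 19 could still be compared, and 16 with at least 0.5 of the region covered. With genes of every type 16 stayed with the 4 genes, and within 20 kb 12 did. Those that could be compared in these settings stayed apart. The difference changed sign for the Hif1a promoter region by −log10 q (0.17 points) and for the Hif1a region at 73953401 to 73954029 with the mean of its peaks (−0.027 points). The cause was not tested.

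The replicate numbers recur in both genotypes, but the labels do not pair the libraries by them. Deviations of same-numbered libraries correlated across shared regions with r = 0.0734 for the percentile and 0.0571 for log2 width. Under a replicate block, which asks for the same direction within both pairs, 1 region was KO-only, 2 were WT-only, 11 were lower (25.6%, 21.4% over the genome), 15 higher (34.9%, 30.1%), 15 narrower (34.9%, 20.9%) and 5 wider (11.6%, 28.8%). Peak lists do not carry read depth, so a region below the threshold in a library cannot be told apart from one that is less open.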
